A study of Mus musculus with 4 samples.

Results

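Fibroblast growth factor (FGF) receptors and the Sprouty and Spred inhibitors that restrain them were examined in muscle stem cells (MuSCs) of adult mice that were cultured and given BMP6 for 1 h. The set comprised 10 genes chosen by name, namely the ligand Fgf2, the receptors Fgfr1 and Fgfr4, the Sprouty genes Spry1, Spry2, Spry3 and Spry4, and the Spred genes Spred1, Spred2 and Spred3. Of these, 8 had a row of their own among the 55267 entries of the expression table. Cells came from skeletal muscle of female 9-week-old C57BL/6N(Tg(Pax7-EGFP)Tajb) mice, a strain in which a Pax7 transgene marks MuSCs with green fluorescent protein. They were cultured for 1 day, sorted for that reporter and grown for 2 further days in medium with serum, leukemia inhibitory factor and 2.5 ng/mL basic FGF, the protein product of Fgf2. All cultures then spent 6 h without serum in 200 ng/mL soluble BMPR-1A-Fc, which binds BMPs. BMP6 at 100 ng/mL was compared with vehicle (4 mM HCl and 0.1% BSA), each in 2 libraries. A replicate number, labelled as a batch, was shared by a BMP6 library and a control library.

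FGFs bind receptor tyrosine kinases at the cell surface, which pass the signal through adaptor proteins to Ras and the ERK kinases. Sprouty and Spred proteins are made in response to such signals and dampen them between the receptor and ERK. In MuSCs, FGF drives proliferation, Fgfr1 and Fgfr4 are the receptors most often described, and Sprouty1 is known for its part in the return to quiescence.

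Fgfr1, Fgfr4 and Spry1 overlapped between BMP6 and control libraries, and Spry2 did not. Within both replicate pairs Spry2 was higher and Spry1 lower with BMP6 (Spry1 log2 changes -0.45 and -0.53). The log2 changes within pairs were smaller for Fgfr1 (0.01 and 0.11) and Fgfr4 (-0.03 and -0.0002). Spry2 averaged 52.8 ± 0.302 TPM (SD, n = 2) in BMP6 libraries and 28.3 ± 3.44 TPM (SD, n = 2) in controls, 1.87-fold higher with BMP6. Spry1 averaged 45.1 ± 13.8 TPM (SD, n = 2) with BMP6 and 64.2 ± 21.9 TPM (SD, n = 2) without, a ratio of 0.702. TPM, transcripts per 1000000, is scaled for transcript length and so can be compared between genes. With the replicate number in the model, both Sprouty genes passed an adjusted p of 0.1, and without it neither did. In bulk libraries, fewer cells that express a gene and less RNA per cell cannot be told apart.

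The libraries were deep and alike. Reads rebuilt from coverage came to 108 to 112 per library in units of 1000000, 13002 to 13203 entries reached 1 TPM, and TPM correlated between libraries at 0.988 to 0.995 on the log scale. Of the markers of MuSCs and myoblasts, Pax7 was at 8.29 to 11.7 TPM, Myf5 at 111 to 171 TPM and Myod1 at 536 to 631 TPM, and Myog, a factor of differentiating myoblasts, stood at 4400 to 5472 TPM. Of the 8 muscle markers, 6 were lower in mean with BMP6 (median log2 fold change -0.13), and their summed level was 6701 and 6978 TPM against 6888 and 7662 TPM, so the groups overlapped. None of the 8 passed the adjusted p, and 1 passed with the block. That gene was Des, the muscle intermediate filament gene, which was at 952 and 807 TPM with BMP6 and 1120 and 955 TPM in controls, with a log2 fold change of -0.24 (limma adjusted p = 1.00, and 0.0312 with the block). Itga7, an integrin of muscle cells, was at 222 and 175 TPM against 251 and 203 TPM (-0.19, adjusted p = 1.00). The part of these markers in the results on the members was not tested. No endothelial marker exceeded 1.87 TPM, no immune marker 1.68 TPM, no pericyte or smooth muscle marker 4.93 TPM and no Schwann marker 0.601 TPM. Of the 6 fibroblast markers, Col1a1, Col1a2 and Col3a1 were at 34.3 to 240.2 TPM while Pdgfra did not exceed 0.164 TPM. The summed fibroblast level was 406 and 291 TPM in the BMP6 libraries and 403 and 330 TPM in the controls, so the groups overlapped. The treatment itself was visible, since Id1, a direct BMP target, was at 584 and 513 TPM with BMP6 against 90.5 and 129 TPM in controls.

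**Figure D1:**
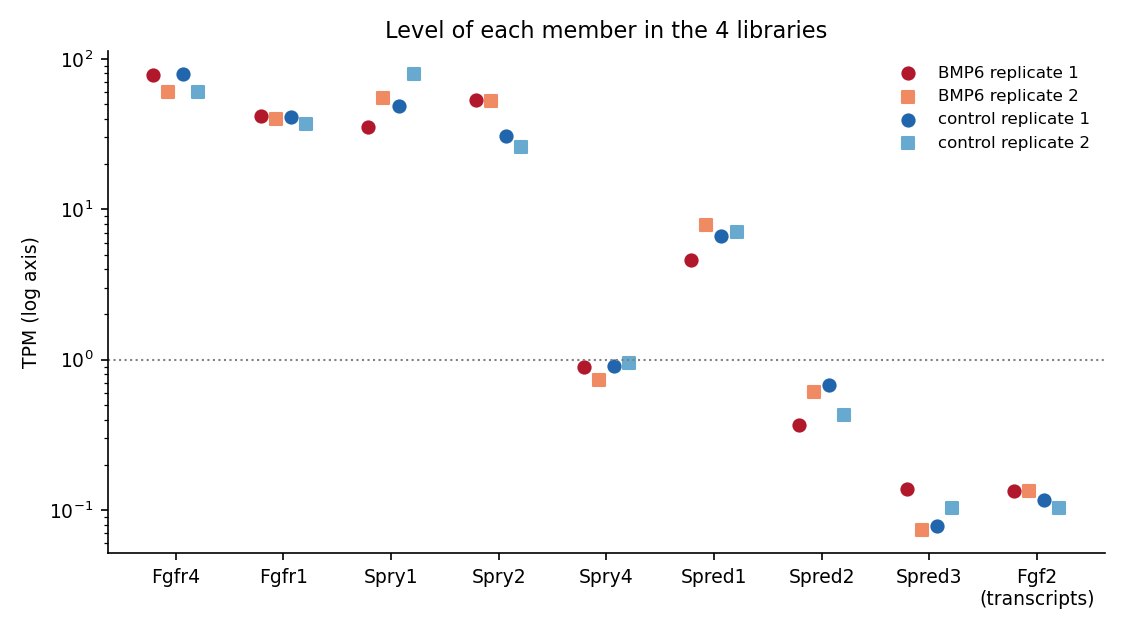
TPM on a log axis of 8 members and of the summed Fgf2 transcripts in each of the 4 libraries (circles, replicate 1, and squares, replicate 2), with the filter of 1 TPM as a dotted line. Both Spry2 points with BMP6 (53.1 and 52.6 TPM) lie above both controls (30.7 and 25.8 TPM), and the receptors overlap between groups.

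In control cells the mean level of members with a row ranged from 0.0903 TPM (Spred3) to 69.6 TPM (Fgfr4). Fgfr4 (69.6 ± 13.9 TPM, SD, n = 2) and Spry1 (64.2 ± 21.9 TPM, SD, n = 2) were highest, and their libraries overlapped. Fgfr1 followed at 39.1 ± 2.94 TPM (SD, n = 2) and Spry2 at 28.3 ± 3.44 TPM (SD, n = 2), each apart from its neighbours in this order. Spred1 stood at 6.85 ± 0.283 TPM (SD, n = 2). Spry4, Spred2 and Spred3 stayed under 1 TPM in all 4 libraries and were not tested. Spry3 had no row and was not analysed here.

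Fgf2, the ligand, had no row of its own because its 5 transcripts belonged to an entry named Gm43439 that also held Bbs12. Summed over these transcripts, Fgf2 was at 0.134 and 0.133 TPM with BMP6 and at 0.118 and 0.103 TPM in controls, or between 38 and 50 rebuilt reads per library. Only 1 of the 5 transcripts carried any signal. The entry as a whole was at 3.60 and 4.00 TPM with BMP6 and 3.76 and 4.76 TPM without, nearly all of it from Bbs12 (3.40 to 4.58 TPM). Nudt6, which overlaps the end of Fgf2 on the opposite strand, was at 12.0 to 12.9 TPM, and in unstranded libraries reads of the overlap cannot be assigned to either gene. The cells thus held very little Fgf2 RNA while the growth medium had supplied the protein. FGF is not among the supplements that the study's methods name for the serum-free medium.

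Fgfr1, the receptor found in most mesenchymal cells, was at 41.4 and 40.0 TPM with BMP6 and at 41.2 and 37.0 TPM in controls. The groups overlapped. Its log2 fold change of 0.06 had a standard error of 0.10 and a 95% interval from -0.20 to 0.31 (limma, adjusted p = 1.00). Changes within the replicate pairs were 0.01 and 0.11 on the log2 scale.

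Fgfr4, a receptor enriched in muscle progenitors, was at 77.8 and 59.8 TPM with BMP6 and at 79.4 and 59.8 TPM in controls. Replicate 1 exceeded replicate 2 in both groups, and the gene totals of a pair were nearly equal. Depth over single exons was less alike, and its differences reversed between pairs. Over the exon at chr13:55307736 depth was 464 and 340 with BMP6 and 554 and 308 in controls. Over that at chr13:55315213 it was 748 and 481 against 623 and 572. The log2 fold change of Fgfr4 was -0.01 with a 95% interval from -0.46 to 0.43, which narrowed to -0.17 to 0.14 with the replicate block. The ratio of Fgfr4 to Fgfr1 in TPM was 1.88 and 1.50 with BMP6 and 1.93 and 1.61 without. By TPM, which averages over the annotated length, Fgfr4 was thus the higher receptor in every library. Over single exons of equal length the order varied. At 191 bases (chr8:26060726), Fgfr1 depth was 485 and 423 with BMP6 and 476 and 436 in controls. Fgfr4 (chr13:55313909) had 467 and 362 against 526 and 339. At 138 bases (chr8:26063139), Fgfr1 had 550 and 479 against 541 and 452. Fgfr4 (chr13:55315213) had 748 and 481 against 623 and 572.

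Among the other receptors, Fgfr2 was at 17.1 and 16.8 TPM with BMP6 and 12.8 and 14.7 TPM in controls (log2 fold change 0.29, SE 0.12, limma adjusted p = 1.00). Its groups did not overlap, but the test did not pass with the block either (adjusted p = 0.269). Fgfr3 did not exceed 0.601 TPM. The coreceptors included Ncam1 at 637 to 710 TPM, and Klb and Kl, which serve endocrine FGFs, were at 0 and at most 0.0297 TPM.

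The Fgfr1 entry held 6 transcripts on chromosome 8 (GRCm39, chr8:26008775-26065734, plus strand), which differ in the part that codes for the extracellular domain, a row of immunoglobulin-like loops that binds FGFs. Of these, 3 lack the exon for the first immunoglobulin-like loop, which gives the shorter beta form of the receptor. These took 22.4% and 28.1% of Fgfr1 TPM with BMP6 and 37.7% and 21.5% in controls, a spread in which the control libraries lay farther apart than the groups. Depth over the loop exon was 56.5% and 64.8% of that over the next exon with BMP6, and 63.1% and 60.8% without. Gm16159, on the opposite strand over this exon, was at 2.38 to 3.84 TPM. The next exon has 2 ends that differ by 6 bases, shown in capitals in its last 30 bases (chr8:26047807-26047836, plus strand, from the GRCm39 genome), and inclusion of these bases adds a pair of residues to the protein.

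Fgfr1 exon end: agacggacaacaccaaaccaaaccGTAGGC

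The form with the 6 bases had 59.8% and 57.6% of the exon's depth with BMP6 and 68.3% and 61.6% in controls. Both BMP6 values were lower than both control values, by a margin smaller than the gap between the control libraries. No test was run on these shares, since with 2 libraries per group a permutation share cannot fall under 0.333. Fgfr4 was represented by 1 transcript (chr13:55300453-55316572, plus strand), whose first exon had 5.41% of the depth of its last.

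Spry2, an inhibitor induced by receptor tyrosine kinase signaling, lies at chr14:106129381-106134253 (minus strand). It was at 53.1 and 52.6 TPM with BMP6 and at 30.7 and 25.8 TPM in controls, from 6937 and 6595 rebuilt reads against 4087 and 3319. Both treated libraries lay above both controls. The log2 fold change was 0.88 with a standard error of 0.12 and a 95% interval from 0.60 to 1.17, under the 1 on this scale that a call requires. Its unadjusted p was 0.000285 and its adjusted p 0.107 (limma, Benjamini-Hochberg over 13128 entries), just above the limit of 0.1. Within the replicate pairs the change was 0.77 and 1.00. With the replicate block the standard error was 0.08 and the adjusted p 0.00101. Spry2 ranked 48 by size of rise among the 10645 named entries tested.

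Spry1, the paralog linked to MuSC quiescence, lies at chr3:37694096-37698747 (plus strand). It was at 35.3 and 54.9 TPM with BMP6 and at 48.7 and 79.7 TPM in controls. The groups overlapped, because replicate 2 was the higher library in both, but each BMP6 library was below the control of its own pair. The changes within the pairs were -0.45 and -0.53, and the log2 fold change of -0.49 had a standard error of 0.29 and a 95% interval from -1.19 to 0.21 (limma, adjusted p = 1.00). With the replicate block the interval was -0.65 to -0.33 and the adjusted p 0.0136. Leaving out 1 library at a time without the block, the log2 fold change ranged from -0.84 without control replicate 1 to -0.14 without control replicate 2. By size of fall, Spry1 also ranked 48 among the 10645 named entries.

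The balance of the pair shifted in each replicate. The TPM ratio of Spry2 to Spry1 was 1.50 and 0.959 with BMP6 and 0.630 and 0.324 in controls. Both treated ratios were above both control ratios, and within a pair the ratio was higher with BMP6 in 2 of 2 pairs. The rise within each pair follows from the opposite changes of the 2 genes and is not a further result. The summed TPM of Spry1, Spry2 and Spry4 was 89.3 and 108 with BMP6 and 80.3 and 107 without, so the total overlapped between groups. Spry4, another Sprouty gene often induced by FGF, was at 0.893 and 0.733 TPM with BMP6 and at 0.912 and 0.957 TPM in controls. Its values were low throughout, with both treated libraries a little under both controls.

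**Figure D2:**
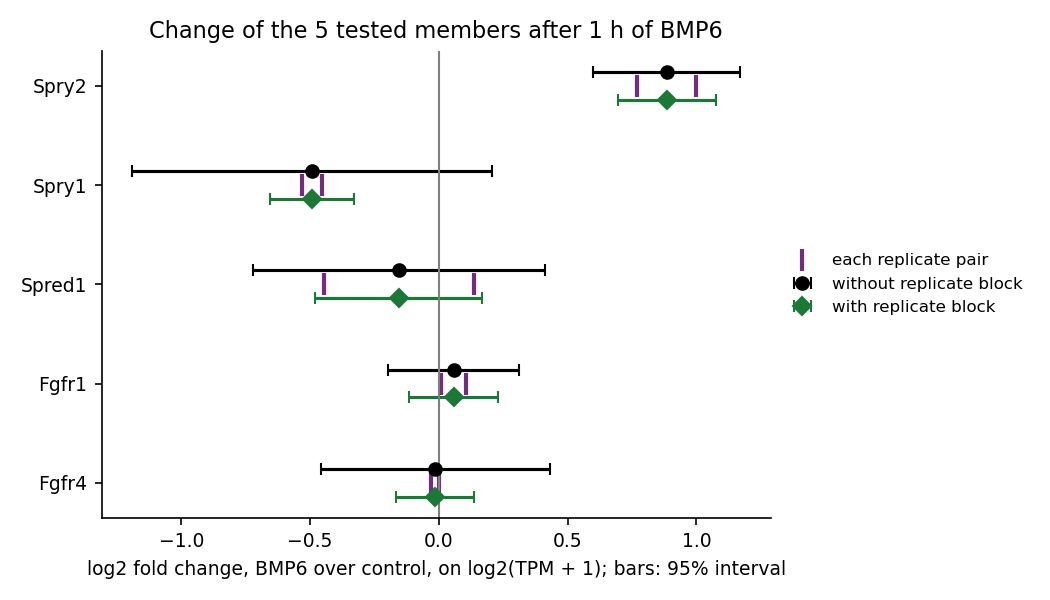
Log2 fold change of the 5 tested members on the log2(TPM + 1) scale, with 95% intervals without the replicate block (black circles) and with it (green diamonds) and the change in each replicate pair (purple ticks). The interval of Spry2 lies above 0 in both fits, that of Spry1 below 0 with the block only, and the intervals of Spred1, Fgfr1 and Fgfr4 span 0 in both.

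Nearly all Spry2 signal came from the exon that holds the whole coding sequence. Depth over this exon (1855 bases) was 373 and 355 with BMP6 and 219 and 178 in controls. Over the non-coding first exon (232 bases) it was 6.70 and 6.23 with BMP6 and 10.5 and 9.68 in controls, so the first exon was lower in both treated libraries while the coding exon was higher. That first exon held 16 and 14 rebuilt reads with BMP6 and 24 and 22 without. Scaled to library size, the BMP6 to control ratio was 0.659 for the first exon (exact binomial 95% interval 0.402 to 1.07). For the coding exon it was 1.85 (1.80 to 1.91). These intervals pool the libraries of a group and treat rebuilt reads as independent. They leave out the spread between libraries, and reads of the same fragment or PCR copies would make them too narrow. The first-exon comparison was made after these depths had been seen. Across 3506 tested entries with 1 transcript and at least 2 exons, the log2 change of the first exon minus that of the last (1 added to each depth) had a median of -0.03 and a 5th percentile of -0.51. For Spry2 it was -1.44, and 5 entries were lower. Among the 668 entries with a first-exon depth of 5 to 15, the median was -0.06, and 1 entry was lower than Spry2. GENCODE M39 lists 5 Spry2 transcripts with 5 different first exons, of which the deposited annotation held 1, and depth over the others was not analysed here. It also lists Gm62623 on the opposite strand, whose exons cover all 232 bases of this first exon.

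Spry1 likewise has its coding sequence in its last exon (2044 bases), where depth was 267 and 428 with BMP6 and 371 and 583 in controls. The rebuilt reads of this exon gave a BMP6 to control ratio of 0.736 (0.720 to 0.752). The main first exon (148 bases, depth 45.5 to 93.3) gave a pooled 0.776 (0.632 to 0.950), but its pairs moved in opposite directions. It held 105 and 67 rebuilt reads with BMP6 and 86 and 138 in controls. The limits of the intervals for Spry2 exons hold for both Spry1 intervals as well. The non-coding middle exon (289 bases, 84.8% GC) was assigned 6 and 16 rebuilt reads with BMP6 and 62 and 129 in controls. These numbers depend on how StringTie divided reads with a longer first exon (729 bases) that runs over the same bases and was assigned 9 and 133 rebuilt reads with BMP6 and 17 and 14 in controls. The mean depths of both exons, each taken over its own full length, summed to 3.31 and 23.8 with BMP6 and 23.9 and 46.6 in controls. Depth over the shared bases alone was not measured. By this sum BMP6 replicate 2 and control replicate 1 were about equal. Each BMP6 library was below the control of its own pair. ENSMUST00000038569, which holds the middle exon, had 73.5% and 16.0% of Spry1 TPM with BMP6 and 90.4% and 98.1% in controls, while ENSMUST00000108107, with the longer exon, had 15.6% and 82.5% against 5.13% and 1.05%. The BMP6 libraries differed more from each other than BMP6 replicate 1 did from the controls. Over 51 exons of at least 100 bases and 80% GC in entries with 1 transcript, the change relative to the last exon had a median of -0.13 and a 5th percentile of -0.66. GENCODE M39 lists 2 Spry1 transcripts that join the first exon to the coding exon without the middle one. Neither was among the 3 transcripts quantified.

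**Figure D3:**
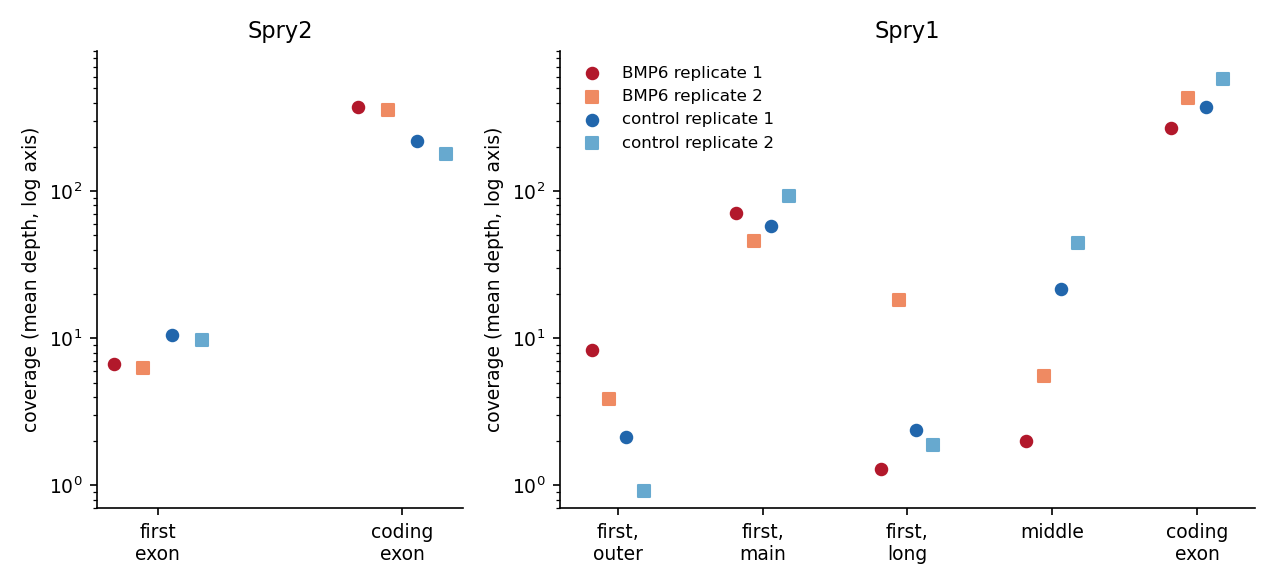
Mean depth on a log axis over the exons of Spry2 (left) and Spry1 (right), 1 point per library. For Spry2 the BMP6 points are below the controls at the first exon (6.23 and 6.70 against 9.68 and 10.5) and above them at the coding exon, and for Spry1 the middle exon has BMP6 at 2.01 and 5.58 and control at 21.5 and 44.7, while the long first exon over the same bases is highest in BMP6 replicate 2 (18.2), so the depth of either depends on how reads were divided.

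Spred proteins carry the Sprouty-type domain together with an EVH1 domain and bring neurofibromin, a Ras inhibitor, to the membrane. Spred1, at chr2:116951855-117012760 (plus strand), was at 4.61 and 7.85 TPM with BMP6 and at 6.65 and 7.05 TPM in controls. The groups overlapped and the pairs moved in opposite directions, by -0.45 and 0.14 on the log2 scale. Its log2 fold change was -0.16, with a standard error of 0.23 and a 95% interval from -0.72 to 0.41 (limma, adjusted p = 1.00). The longer of its 2 transcripts had 92.7% to 95.8% of the gene's TPM. Spred2 was at 0.368 and 0.614 TPM with BMP6 and at 0.675 and 0.431 TPM in controls, and Spred3 at 0.138 and 0.0734 TPM against 0.0779 and 0.103 TPM. Both overlapped between groups at levels under the filter. Nf1, which codes for neurofibromin, was at 1.22 and 1.36 TPM with BMP6 and 0.837 and 1.12 TPM without (log2 fold change 0.22, limma adjusted p = 1.00).

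Counted over the 5 tested members, 0 were called (2-fold up or down, and past an adjusted p of 0.1), 0 passed that adjusted p alone, and 1 had an unadjusted p under 0.05. By voom on rebuilt reads without the block, 0 passed as well. Over all 10645 named entries tested, 0.225% were called higher and 0% lower, while 0.263% passed the adjusted p upward and 0.00939% downward. With the replicate block, 1 of the 5 passed upward and 1 downward, beside 1.32% and 0.319% of all named entries. For 1 of the 5 the groups did not overlap with BMP6 higher, as for 17.4% of named entries, and for 0 with BMP6 lower, as for 10.8%. The median log2 fold change of the 5 was -0.01 and that of the named entries 0.02.

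Genes of the pathway around the members were read from lists chosen by function. Since 0.263% of named entries passed the adjusted p upward and 0.00939% downward, 0 in a short list says little about it. Of 10 tested FGF receptors and coreceptors, 4 were higher and 6 lower in mean with BMP6, and 0 passed the adjusted p with or without the block. Besides Fgfr2, the widest difference was that of Sdc3, a syndecan coreceptor (12.0 and 8.64 TPM against 15.1 and 9.76, log2 fold change -0.23). Of 23 FGF ligands and binding proteins, 7 were tested and 0 passed. Fgf21, a stress-induced endocrine FGF, was the most abundant at 646 and 471 TPM with BMP6 and 668 and 532 TPM in controls. Fgf5 was at 2.56 and 2.30 TPM against 1.72 and 1.19 (log2 fold change 0.49), and Fgf16 at 2.77 and 1.33 TPM against 3.51 and 2.74 (-0.47).

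In the chain from receptor to ERK, 0 genes passed the adjusted p, beside 0.263% of named entries upward and 0.00939% downward. At such shares 0 in lists of this size does not show that the chain was unaffected. Of 12 adaptors between receptor and Ras, 7 were higher and 5 lower, and 0 passed with or without the block. Their widest differences were those of Sos2, a Ras activator (log2 fold change 0.38), and Grb2, the adaptor that carries it (-0.35, at 46.5 and 91.0 TPM against 73.5 and 94.9). Of 16 genes of the Ras to ERK cascade, 9 were higher and 7 lower and 0 passed, and the largest log2 fold changes were those of Shoc2 (0.40) and Braf (0.34). The 13 partners of Sprouty and Spred proteins also gave 0, and Dyrk1a, a kinase that binds Sprouty proteins, had a log2 fold change of 0.21. The list medians were 0.00, 0.05 and 0.06, beside 0.02 for named entries.

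Of 16 other tested brakes on the pathway, 6 were higher and 10 lower with BMP6, with a list median log2 fold change of -0.07 beside 0.02 for named entries and 0 past the adjusted p. Dusp6, the ERK phosphatase, was at 2.60 and 2.76 TPM with BMP6 and at 4.11 and 4.23 TPM in controls. Its groups did not overlap, and its log2 fold change of -0.49 had an adjusted p of 1.00 by limma and 0.120 with the block. Errfi1, an inhibitor of EGF receptors, was at 48.4 and 46.5 TPM with BMP6 and at 60.5 and 67.5 TPM in controls (log2 fold change -0.42, limma adjusted p = 0.832). With the block Errfi1 passed (adjusted p = 0.0447), the only gene of this list to do so.

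Transcripts listed here as ERK-responsive divided. The list was chosen with earlier results of these data known, so its count is a description only. Of all named entries, 0.263% passed the adjusted p upward and 0.00939% downward, and 1.32% and 0.319% with the block. Of 17 listed transcripts tested, 10 were higher and 7 lower, and 3 passed the adjusted p, all with higher levels. Hbegf, an EGF receptor ligand, rose from 12.8 and 15.8 TPM to 44.5 and 49.2 TPM (log2 fold change 1.65, SE 0.14, limma adjusted p = 0.0246). Ier3, an early response gene, rose from 10.5 and 11.4 TPM to 23.1 and 22.4 TPM (0.99, SE 0.12, adjusted p = 0.0721). Spsb1, a ubiquitin ligase adaptor, rose from 16.4 and 13.8 TPM to 31.1 and 30.7 TPM (0.99, SE 0.12, adjusted p = 0.0931). With the block, 4 passed upward, these 3 and Phlda1 (12.0 and 13.4 TPM against 6.87 and 9.29, block adjusted p = 0.0308), and 1 downward, Myc (45.6 and 41.9 TPM against 59.0 and 60.7, block adjusted p = 0.0303). Egr1 was at 66.5 and 58.4 TPM against 75.6 and 66.0, Fos at 47.5 and 36.7 TPM against 39.3 and 30.1, and Etv5 at 1.89 and 1.15 TPM against 2.13 and 1.32. These 3, among the best known ERK targets, overlapped between groups, though in both pairs Egr1 and Etv5 were lower and Fos higher with BMP6. Dusp6, given above among the brakes, is also on this list and was lower without overlap. On the treatment check list, 6 of 8 BMP targets passed, all upward (Id1, Id2, Id3, Smad7, Atoh8 and Skil), with a list median of 2.02. With the block 7 passed, since Smad6 (4.13 and 10.6 TPM against 0.621 and 0.673) went from an adjusted p of 0.270 to 0.00169.

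**Figure D4:**
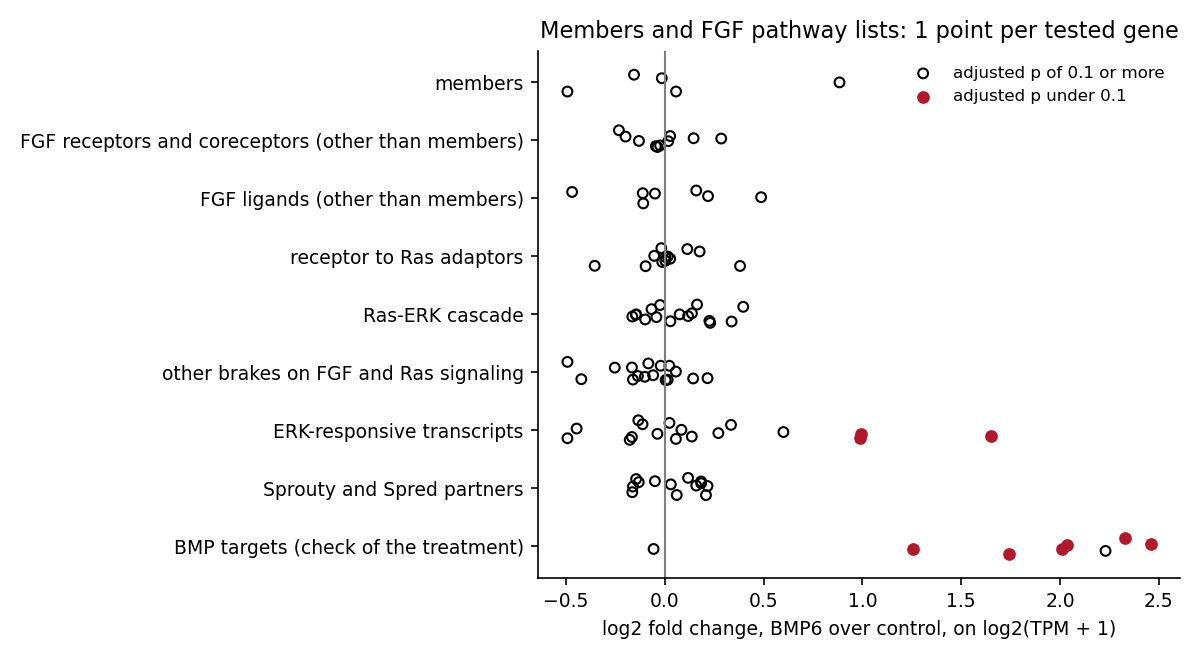
Log2 fold change on the log2(TPM + 1) scale of each tested gene in the members and 8 lists, with filled red points for an adjusted p under 0.1. Red points appear for 3 ERK-responsive transcripts (0.99, 0.99 and 1.65) and 6 BMP targets, and in the other rows 0 genes passed.

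The 5 genes whose profile over the 4 libraries was closest to that of Spry2, by Euclidean distance between centred log2(TPM + 1) values, were Tmem119 (distance 0.0935), Cxcr4 (0.0964), Fam78a (0.105), Spsb1 (0.109) and Gata3 (0.113). All 5 had BMP6 above control without overlap, as a profile near that of Spry2 must. Tmem119, at 266 and 251 TPM with BMP6 and 146 and 134 TPM in controls, was the most abundant, and its adjusted p was 0.0511 by limma. Cxcr4, the receptor for the chemokine Cxcl12, was at 2.98 and 3.27 TPM against 1.32 and 1.01. Without the block Cxcr4, Fam78a and Gata3 did not pass (limma adjusted p = 0.270, 0.336 and 0.505), and with it they did (0.0143, 0.0135 and 0.0132).

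A total of 7 RefSeq promoter windows of members (GRCm38.p6, from 250 bases before to 50 after the start) were searched. Any window of Spry4 was left out of these, while the background kept all windows. The motif GGCGCC, a GC-rich element bound by Smad1 and Smad5, occurred in 3 of 7 (Fgf2, Spred1 and Spred2) on either strand, beside 11.9% of all 32851 windows. This motif is its own reverse complement. The Smad palindrome GTCTAGAC, the ETS motif CCGGAAGT and the cAMP-response element TGACGTCA occurred in 0 of 7, beside 0.213%, 3.89% and 1.79% of windows. The windows of Spry1, Spry2 and Fgfr4 held none of the 4 motifs. None of the motifs searched contains another. These matches describe the letters in a short window and carry no statement on binding.

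Sequence copies could affect the counting of some members. At 95% identity over at least 100 bases, Fgfr4 and Spry4 shared no stretch with another annotated gene. Spry1 (with Gm42922), Spry2 (with Gm62623), Fgfr1 (with Gm16159) and Fgf2 (with Nudt6 and Gm43439) shared stretches with genes at their own locus. Spred3 shared 130 bases with Gm73445, whose position was not looked up. Spred1 shared 169 bases with Vps35 and Spred2 shared 125 bases with Gm14612.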

How the data were processed

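RNA from cultured MuSCs was measured in 4 unstranded polyA libraries made by Smart-seq2 and Nextera without molecular identifiers. Per the study's methods and the labels, the authors aligned reads with STAR 2.7.11a to GRCm39 (GENCODE M32), sorted them with SAMtools 1.17 and quantified a merged annotation with StringTie 2.2.1, whose correction for multiply mapped reads was switched off per the file headers. The authors deposited TPM and FPKM per gene in joined tables, and signal as coverage (mean depth, not scaled to library size) per transcript and exon in each library's files. Their own comparison tested rebuilt read numbers at a fold change of 2 or 0.5 and an FDR of 0.1, with default parameters. The joined tables give values without integer reads, so a log-scale test was used here at the same limits.

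In the present work, log2(TPM + 1) was tested with limma 3.58.1 (R 4.3.3; mean-variance trend, two-sided, no block), with Benjamini-Hochberg adjustment over 13128 entries of mean TPM of at least 1. Fold changes on this scale understate changes of low genes. Names of predicted genes, microRNAs, antisense genes and pseudogenes (2483) stayed in the fit and out of the counts, leaving 10645. Reads were rebuilt as coverage times length over 100 bases. A batch label pairs same-numbered libraries, whose deviations from the group means correlated at 0.563 across genes, so the replicate block was fitted as an alternative and printed where it changed a call. The labels call the replicates biological. With 2 libraries per group the precision rests on the spread of 4 values and on variance that limma borrows across genes (prior degrees of freedom 3.94 without the block). The block leaves less of a gene's own spread, so its intervals and adjusted p rest more on the borrowed part. No permutation share goes under 0.333. The steps were tested on simulated data. Tables were handled with pandas 2.3.3, copies were sought with BLAST 2.17.0, and coordinates, exon sequences and later transcripts came from GRCm39 and GENCODE M39.

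Members and lists were chosen with earlier results of these data known. Named genes were all 10 members, every list gene past the adjusted p, the 2 genes of each list with the largest absolute log2 fold change, and the 5 profiles nearest to the member with the largest change; Fgfr3, Klb, Kl, Ncam1, Fgf21, Myc, Egr1, Fos, Etv5, Phlda1, Smad6 and marker genes other than Des, Itga7, Col1a1 and Col3a1 were named after their values were seen. One result on Fgfr1 is not reported here. Other pseudocounts, filters, scalings, units and left-out libraries were tried.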

Additional observations from a re-analysis of the deposited data

How the results depend on the processing

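Over 14 alternatives, Spry2 stayed higher with BMP6 (log2 fold change 0.76 to 1.00) and Spry1 lower (-0.84 to -0.14). Neither passed the adjusted p under any alternative without the replicate block, where that of Spry2 ran from 0.109 to 0.675. With the block in the model 2 members passed it, and 2 also passed under voom with that block (rebuilt reads), an alternative chosen after seeing the data. Leaving out 1 library, 0 passed. On leaving out 1 library, the log2 fold change of Spred1 ranged from -0.48 to 0.17 (0.17 without BMP6 replicate 1) and that of Fgfr1 from -0.017 to 0.13 (-0.017 without control replicate 2). That of Fgfr4 ranged from -0.22 to 0.19 and was positive without BMP6 replicate 2 (0.17) and without control replicate 1 (0.19). None of these was past the threshold in any fit.

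The number of genes called higher, 24 as reported, was 15 with a pseudocount of 5, 0 with no filter on low values (limma; 36 had an unadjusted p under 0.05 with the fold in the reported fit), 15 when entries had to average 5 TPM, 12 without a variance trend, and 56 with voom and the block. Leaving out 1 library gave 17 to 30. The number called lower, 0 as reported, was 1 with the replicate block, 6 with voom and the block, and 1 to 7 with 1 library left out. The other alternatives gave counts within 1.5 times those reported. The cause of these differences was not tested. Spry4, Spred2 and Spred3 could be fitted only without the filter, where each kept the sign of its difference. Fgf2 and Spry3, without a row, have no alternative values. At 2 libraries per group, the unpaired interval of Spry1 included 0, and the low exons rest on few reads.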
